A study of Arabidopsis thaliana with 6 samples.

Results

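WRKY and ERF proteins are plant transcription factors. Described here are members of both families, picked by symbol, to which the platform's gene table assigned a probe set in Arabidopsis stem arrays. Members were taken by name: a gene counted if its current symbol was WRKY or ERF followed directly by digits and it had a probe set, a group of short probes for 1 transcript, assigned to it alone. Of 67 genes with such a WRKY symbol in the gene table of the TAIR10.1 assembly, 6 met the rule: WRKY6 (AT1G62300), WRKY20 (AT4G26640), WRKY22 (AT4G01250), WRKY42 (AT4G04450), WRKY47 (AT4G01720) and WRKY53 (AT4G23810). Of 21 genes with such an ERF symbol, 0 met it. The rule also named ERF018, which the table lists as ORA47 (AT1G74930), so under the rule that gene alone stood for the ERF family. The 7 genes came from 13356 that had a probe set of their own, and each had 1 probe set. The other genes with a matching symbol were not analysed here, and their probe sets may be among the 8730 to which the table assigned no gene. Genes of either family under other symbols fall outside the rule, and those measured from the lists used are given below as related genes.

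The samples were 3 mm pieces of wild-type Col stems, cut 2.5 cm above the base. All plants had 3 weeks of short days (8 h light, 16 h dark) before a move to long days (16 h light, 8 h dark). For 7 days 3 samples were treated with 10 mg/g of N-1-naphthylphthalamic acid (NPA), a blocker of polar auxin transport, and 3 were mock-treated. The study used the treatment to start cambium activity and secondary growth, and the comparison is NPA against mock. Values are log2 expression values made by the authors with RMA, 1 Affymetrix array per sample, so a difference of 1 is a doubling, and the number of arrays limits the precision.

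WRKY proteins bind the W-box, a short promoter element, and many of them act in immunity, senescence and nutrient responses. ERF proteins carry an AP2/ERF domain and act in ethylene, jasmonate and stress responses, often within minutes of wounding or touch. Members of both families are also known in the vascular tissue of Arabidopsis: ERF018 has been studied together with the receptor kinase PXY in cell division of the vascular bundle, and WRKY12 in the walls of the pith. In tissue pieces such as these, fewer cells of a type and less RNA per cell cannot be told apart.

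None of the 7 genes passed the test for a difference between NPA and mock. WRKY20 and WRKY47 were 1.36-fold and 1.38-fold higher in NPA, with all NPA arrays above all mock arrays, and neither reached an adjusted p under 0.05 in limma. The other 5 genes had overlapping groups. Of the 6 WRKY genes 0 were called by limma, 2 had an unadjusted p under 0.05 and 2 had groups that did not overlap, all of these higher in NPA. Over all 22746 probe sets tested, 3.00% were called in either direction, 2.76% as higher and 0.242% as lower. An unadjusted p under 0.05 with a higher value in NPA was seen in 11.4%, and groups that did not overlap with NPA higher in 14.8%, so 2 of 6 genes is too small a count to set against these shares. The WRKY differences had a median of 0.20, against 0.01 over all 13356 genes, and 5 of 6 were above 0, against 53.9% of probe sets. That median was -0.01 without NPA 3, 0.11 after quantile normalization once more and 0.09 after centring the arrays on their medians. Centring lowered every difference by 0.11, so the median over all genes fell by as much. ORA47, the single ERF gene under the rule, was not called either, had no unadjusted p under 0.05 and had overlapping groups.

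**Figure D1:**
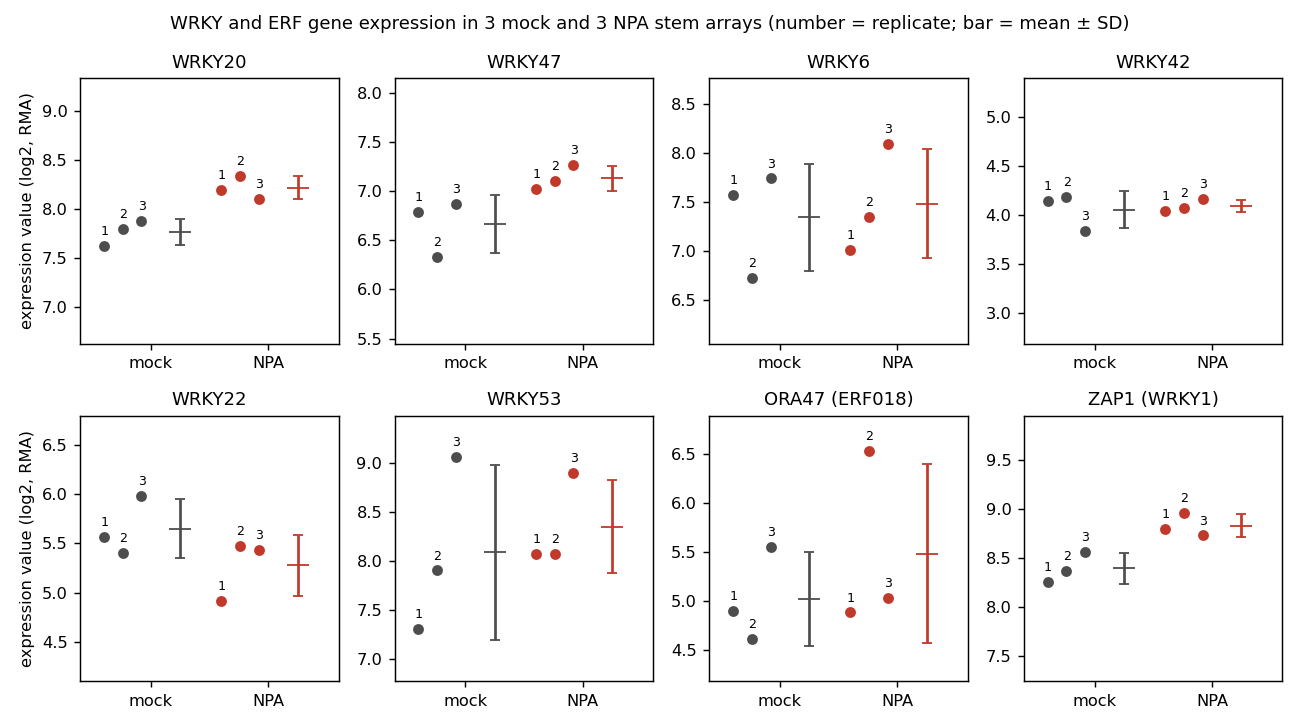
Expression values (y axis, log2 RMA, each panel spanning the same number of log2 units) of the 6 WRKY genes, ORA47 (ERF018) and ZAP1 (WRKY1) in the mock and NPA arrays (x axis). Points are single arrays with their replicate number and bars give mean ± SD of 3 arrays. The groups are apart in WRKY20, WRKY47 and ZAP1, with 0.45, 0.46 and 0.43 between their means, and overlap in the rest.

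WRKY20 belongs to group I of the family, whose proteins carry a pair of WRKY domains. Its value was 7.62, 7.80 and 7.88 in the mock arrays and 8.20, 8.34 and 8.11 in the NPA arrays. The lowest NPA array lay above the highest mock array, and the spread was small in both groups. The mean went from 7.77 ± 0.13 in mock to 8.22 ± 0.12 in NPA (SD, n = 3 each), so NPA exceeded mock by 0.45 ± 0.11 on the log2 scale (SE; limma, adjusted p = 0.0883). The 95% interval of the difference, not adjusted for the number of probe sets, ran from 0.19 to 0.71. Among all probe sets tested, 93.3% had a smaller difference. With single arrays left out the difference stayed at 0.38 to 0.50, with adjusted p from 0.110 to 0.252.

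Another group I gene was present under a different symbol. ZAP1 (AT2G04880), which the TAIR10.1 table also lists as WRKY1, encodes a zinc-dependent DNA-binding activator and falls outside the naming rule. It was added after its values were seen. ZAP1 read 8.25, 8.37 and 8.56 in mock and 8.79, 8.96 and 8.73 in NPA. Its groups did not overlap, and the difference was 0.43 with a standard error of 0.12 (limma, adjusted p = 0.115). WRKY20 and ZAP1 ranked the arrays alike within each group. In both genes mock 1 was the lowest and mock 3 the highest mock array, and NPA 3 the lowest and NPA 2 the highest NPA array. This order was shared by 3.35% of all probe sets tested and was looked for after the values were seen.

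WRKY47, WRKY6 and WRKY42 belong to subgroup IIb. WRKY47 has been linked to tolerance of aluminium and to genes of wall modification in Arabidopsis. It read 6.79, 6.33 and 6.87 in mock and 7.02, 7.10 and 7.26 in NPA. All NPA arrays were above all mock arrays, by a gap of less than the mock SD, since the lowest NPA array and the highest mock array were close. The mean went from 6.67 ± 0.29 to 7.13 ± 0.12 (SD, n = 3 each), a difference of 0.46 with a standard error of 0.16 (limma, adjusted p = 0.200). Mock 2 stood below the other mock arrays, and without it the difference was 0.30, against 0.57 without mock 3.

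WRKY6, a regulator of senescence, defence and phosphate transport genes, read 7.57, 6.72 and 7.74 in mock and 7.01, 7.35 and 8.09 in NPA. The ranges of the groups overlapped over most of their length, and both SDs, 0.54 in mock and 0.55 in NPA, exceeded the difference of 0.14 ± 0.34 (SE; limma, adjusted p = 0.890). The direction turned with single arrays: the difference was -0.17 without mock 2 and also -0.17 without NPA 3. Its 95% interval of -0.65 to 0.93 leaves room for changes of either sign.

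WRKY42 acts on the same phosphate transporter gene as WRKY6. It read 4.14, 4.18 and 3.84 in mock and 4.04, 4.07 and 4.16 in NPA. These values lay below the lower quartile of each array, which was 4.16 to 4.31, and RMA does not report whether a signal was above background. The difference of 0.04 ± 0.12 (SE; limma, adjusted p = 0.918) had a 95% interval of -0.23 to 0.31, among the narrowest of the 7 genes along with that of WRKY20. It was -0.07 without mock 3 and -0.07 after centring the arrays on their medians.

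WRKY22, of subgroup IIe, acts in the immune response to bacterial flagellin. It was the single member with a lower mean in NPA. It read 5.56, 5.41 and 5.99 in mock and 4.91, 5.48 and 5.43 in NPA, so that NPA 1 was the lowest array and mock 3 the highest, while the other 4 arrays lay close together. The mean was 5.65 ± 0.30 in mock and 5.28 ± 0.31 in NPA (SD, n = 3 each), a difference of -0.38 with a standard error of 0.20 (limma, adjusted p = 0.414). Leaving out NPA 1 or mock 3 brought the difference to -0.20 or -0.21, and leaving out mock 2 to -0.50.

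WRKY53, a group III gene known as a positive regulator of leaf senescence, had the widest spread of the 6 WRKY genes. It read 7.31, 7.90 and 9.06 in mock and 8.07, 8.07 and 8.90 in NPA. The mock arrays alone spanned more than the NPA arrays, and all NPA values fell inside the mock range. The difference was 0.26 ± 0.43 (SE; limma, adjusted p = 0.830), with a 95% interval of -0.76 to 1.27. It was 0.74 without mock 3, -0.13 without mock 1 and -0.02 without NPA 3. On the second principal component over all probe sets, which held 21.9% of the variance, mock 1 and NPA 3 lay away from the remaining arrays, and without both of them the WRKY53 difference was -0.41 (limma, adjusted p = 0.642). Without that pair WRKY6 was at -0.05 and ORA47 at 0.62, while WRKY20 and WRKY47 stayed at 0.43 and 0.46.

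ORA47 (ERF018) encodes an AP2/ERF factor that switches on jasmonate synthesis genes after wounding. It read 4.91, 4.62 and 5.56 in mock and 4.89, 6.53 and 5.03 in NPA. The NPA mean rested on NPA 2, since the other 2 NPA arrays lay within the mock range. The mean was 5.03 ± 0.48 in mock and 5.49 ± 0.91 in NPA (SD, n = 3 each), a difference of 0.46 with a standard error of 0.44 (limma, adjusted p = 0.674). Without NPA 2 the difference was -0.07, and with any other single array left out it was 0.25 to 0.76. WRKY20, WRKY47 and ORA47 thus had nearly the same difference, 0.45 to 0.46, with standard errors of 0.11, 0.16 and 0.44.

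**Figure D2:**
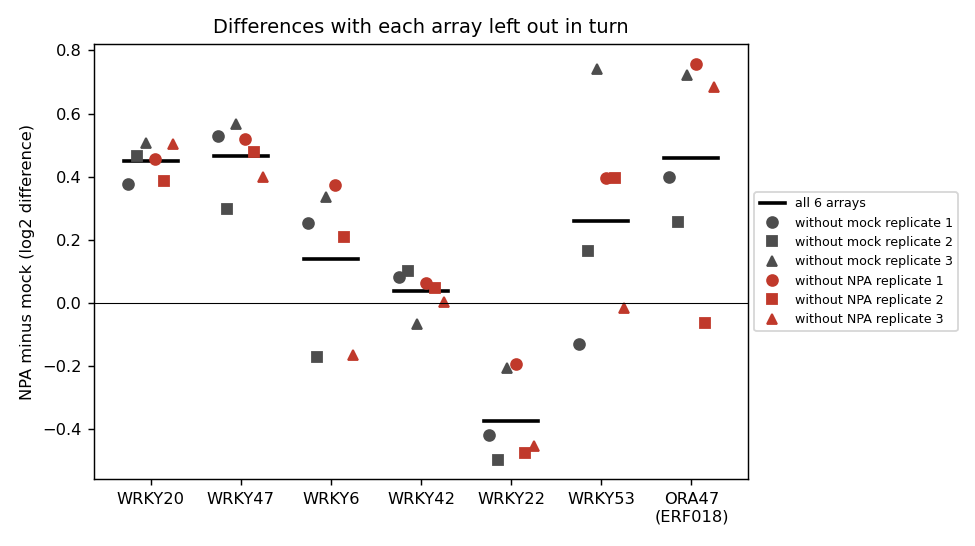
NPA minus mock difference (y axis, log2) of each WRKY gene and ORA47 (x axis) with all 6 arrays (black line) and with each array left out in turn (grey marks for mock, red for NPA, shape for the replicate). WRKY20 and WRKY47 stay between 0.30 and 0.57, WRKY22 stays below 0, and WRKY6, WRKY42, WRKY53 and ORA47 cross 0.

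The spread between arrays of 1 group divided the genes. The within-group SD, pooled over mock and NPA, was 0.73 for ORA47, 0.71 for WRKY53 and 0.55 for WRKY6, and 98.1% to 99.2% of all probe sets had a smaller one. WRKY22 followed with 0.31, larger than in 89.7% of probe sets. WRKY47 had 0.22, larger than in 76.6% of probe sets. WRKY42 and WRKY20 had 0.14 and 0.13, a little under the median of 0.151 over all probe sets.

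**Figure D3:**
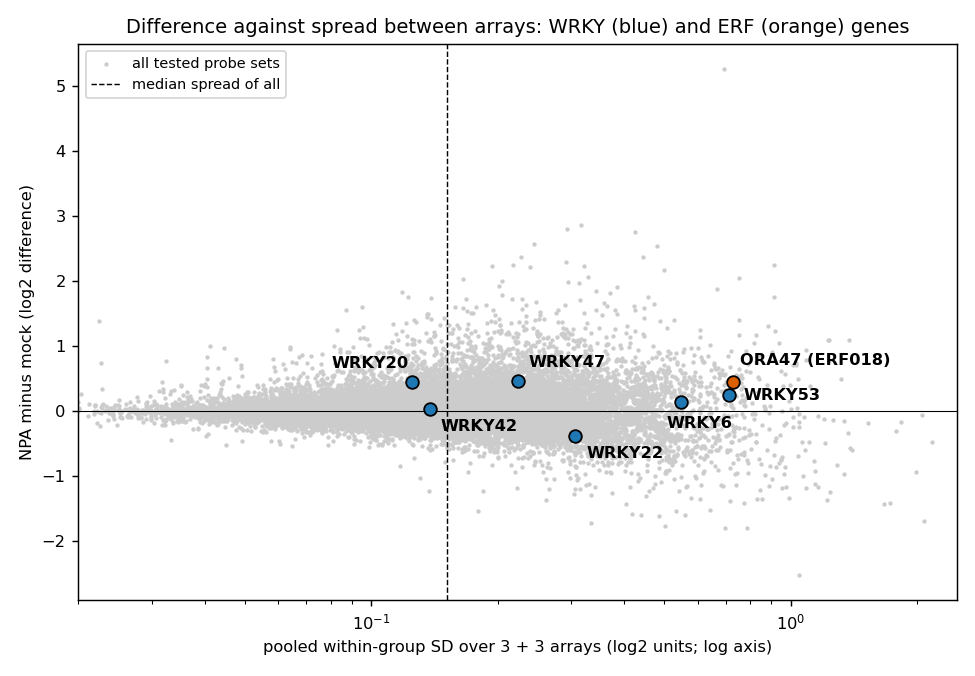
NPA minus mock difference (y axis, log2) against the pooled within-group SD of 3 mock and 3 NPA arrays (x axis, log scale) for all tested probe sets in grey, the WRKY genes in blue and ORA47 in orange. The dashed line is the median spread of 0.151. ORA47, WRKY53 and WRKY6 lie far to the right of it at 0.55 to 0.73, while WRKY20 and WRKY42 lie just to its left.

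Several of the 7 genes were high and low in the same arrays within a group. Mock 3 was the highest mock array in 6 of the 7 genes, against 32.5% of probe sets. In 4 genes, WRKY6, WRKY22, WRKY47 and ORA47, mock 2 was the lowest mock array and NPA 1 the lowest NPA array, against 13.2%. WRKY6 and WRKY47 also had mock 3 and NPA 3 as the highest arrays, an order of all 4 places found in 3.69% of probe sets. These orders were looked for after the values were seen and describe 6 arrays.

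Of 21 listed genes of rapid stress and touch responses 3 were measured, and 2 of them, STZ and CML38, had the array order of WRKY6. STZ, a zinc finger repressor also known as ZAT10, read 10.30, 9.54 and 10.48 in mock and 8.95, 9.54 and 10.21 in NPA. CML38, a calmodulin-like gene induced by wounding, read 6.86, 5.47 and 7.28 in mock and 5.11, 5.30 and 7.14 in NPA. In both, mock 2 and NPA 1 were lowest and mock 3 and NPA 3 highest. CML37, another calmodulin-like gene, read 3.68, 3.52 and 4.01 in mock and 3.47, 3.15 and 3.71 in NPA, with NPA 2 and not NPA 1 as the lowest NPA array. None of the 3 genes was called by limma or had an unadjusted p under 0.05, and all 3 were lower in NPA, with a median difference of -0.54: CML38 at -0.69 (limma, adjusted p = 0.657), STZ at -0.54 (adjusted p = 0.509) and CML37 at -0.29 (adjusted p = 0.479). The part of such stress responses in the spread of WRKY6 was not tested.

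**Figure D4:**
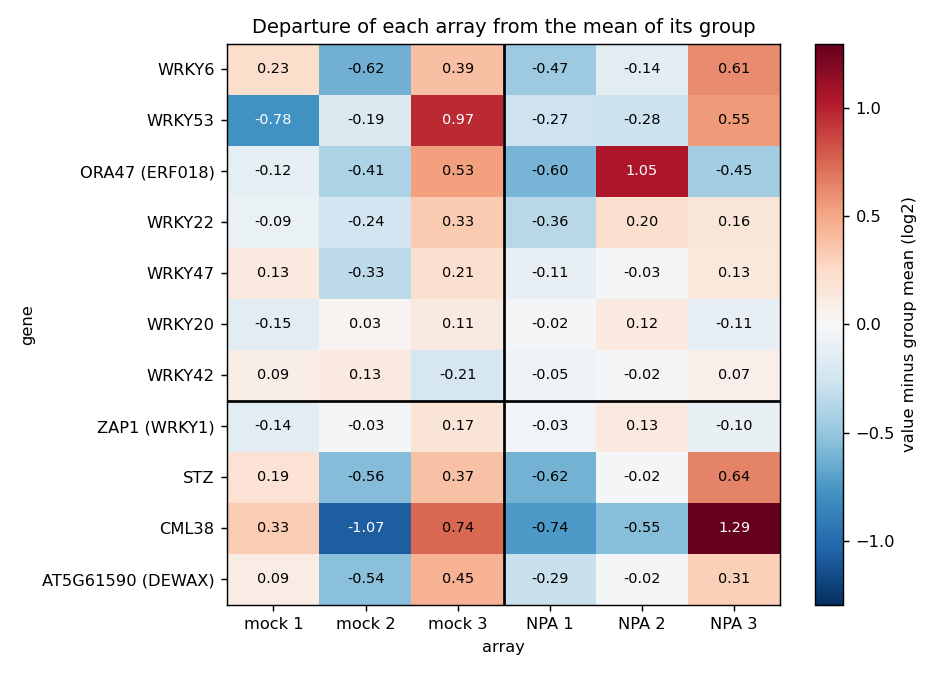
Value of each array minus the mean of its group (log2, colour and printed number) for the 7 WRKY and ERF genes (upper rows) and for ZAP1, STZ, CML38 and DEWAX (lower rows), with arrays along the x axis. WRKY6, STZ, CML38 and DEWAX are lowest in mock 2 and NPA 1 and highest in mock 3 and NPA 3, with WRKY6 at -0.62 and -0.47 and at 0.39 and 0.61.

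Other genes of the AP2/ERF superfamily, listed under symbols outside the naming rule, gave 10 measured of 73 listed. They were set apart from the members by symbol alone and may include ERF family genes. None of them was called by limma, 1 had an unadjusted p under 0.05, and 5 were higher and 5 lower, with a median difference of 0.00. HRD, a drought-related factor, stood furthest from 0. It read 6.44, 6.42 and 6.99 in mock and 5.32, 5.75 and 6.06 in NPA, with all NPA arrays below all mock arrays. Groups that did not overlap with NPA lower were seen in 7.45% of probe sets. HRD was 1.87-fold lower, a difference of -0.91 with a standard error of 0.22 (limma, adjusted p = 0.0884). SHN3, which acts on cutin and cell walls, differed by 0.30 (limma, adjusted p = 0.308). DEWAX (AT5G61590), a repressor of wax synthesis, had means that differed by less than 0.01 and an SD of 0.41, and it followed the array order of WRKY6. The remaining 7 genes, among them the organ and embryo regulators PUCHI, LEP and BBM, lay between -0.15 and 0.21.

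Of the genes upstream of ERF transcription in the ethylene pathway, 2 of 28 listed were measured. EIN3, the factor that turns on ERF genes when ethylene is sensed, read 10.05 to 10.23 in mock and 10.09 to 10.28 in NPA, and differed by 0.06 ± 0.10 (SE; limma, adjusted p = 0.817). RTE1, which acts with an ethylene receptor, differed by 0.20 ± 0.12 (SE; limma, adjusted p = 0.474). Neither was called or had an unadjusted p under 0.05.

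Of 17 listed partners of WRKY proteins, IKU1 was measured, which encodes a VQ protein of seed development. It read 5.94, 5.83 and 6.04 in mock and 5.99, 6.40 and 6.34 in NPA, a difference of 0.31 ± 0.13 (SE; limma, adjusted p = 0.305), and the groups overlapped through NPA 1 and mock 3. The 15 listed genes of salicylic acid and camalexin defence, where WRKY factors act, were not analysed here, since the platform's gene table assigned none of them a probe set of its own.

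Of 32 listed genes of ethylene and jasmonate defence, some of which ERF factors activate, 4 were measured. None was called by limma or had an unadjusted p under 0.05, and 1 was higher and 3 were lower. JMT, which makes methyl jasmonate, differed by -0.39 ± 0.20 (SE; limma, adjusted p = 0.396). The defensin gene PDF1.2 read 13.51, 12.18 and 11.92 in mock and 12.10, 12.78 and 13.08 in NPA, and PDF1.2b differed by -0.36 (limma, adjusted p = 0.637). PDF1.2 and PDF1.2b are near copies, so their probes may read both. LCR67, listed as PDF1.1, was high in mock 2 at 8.33 and in NPA 1 at 6.97 and at or below 4.26 in the other arrays, with a difference of -0.47 (limma, adjusted p = 0.906). The arrays in which it was high were those in which WRKY6, STZ and CML38 were low. This match was noticed after the values were seen. Over all probe sets, the departures of mock 2 and NPA 1 from their group means had a correlation of 0.363.

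**Figure D5:**
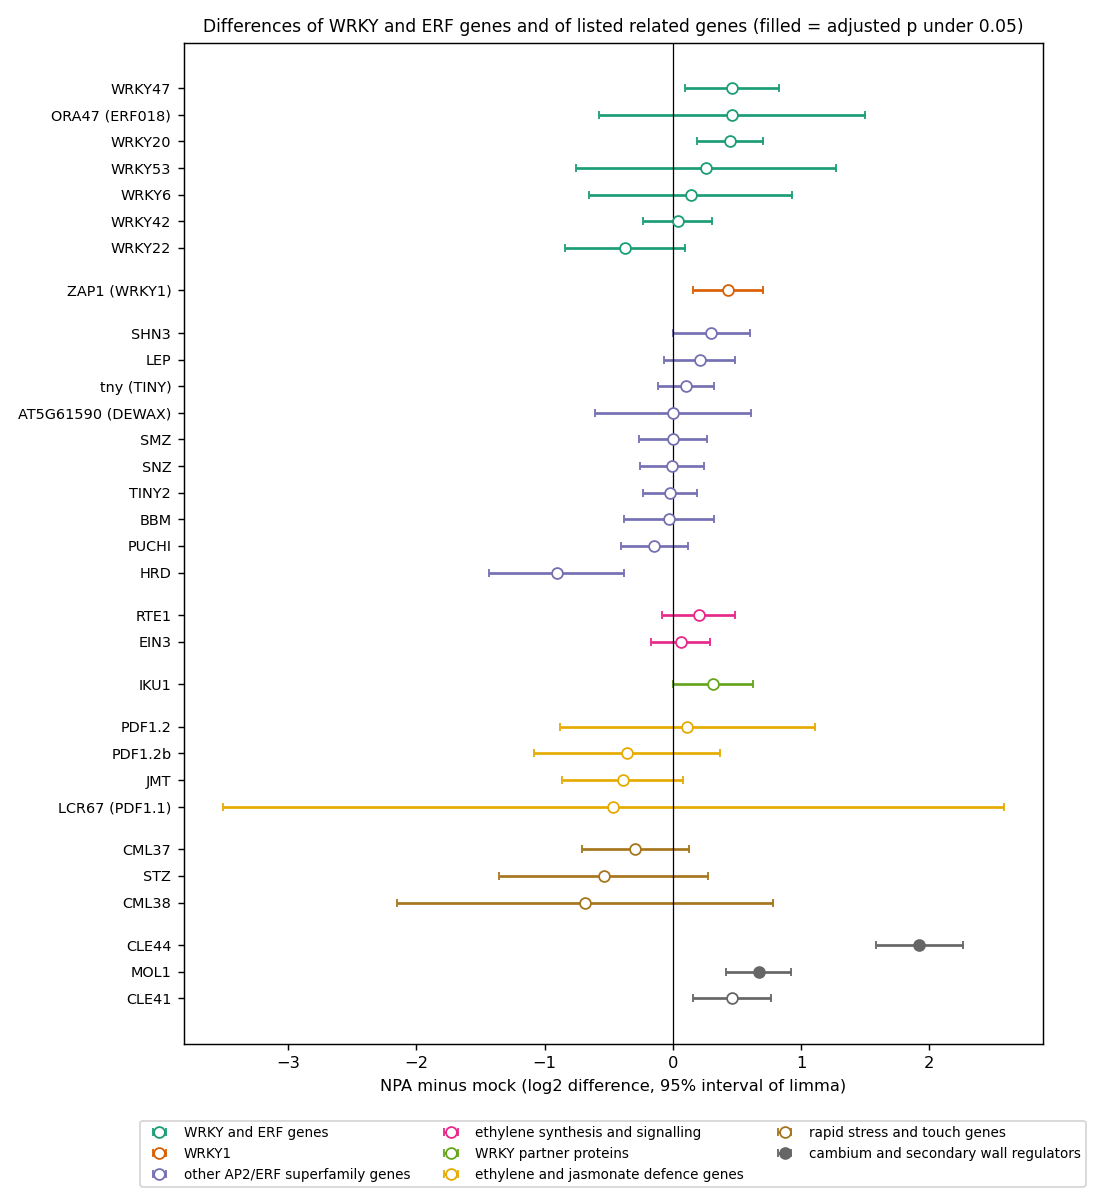
NPA minus mock difference (x axis, log2) with its 95% interval from limma for the WRKY and ERF genes and for the measured genes of each related list (y axis, colour by list). A filled point marks an adjusted p under 0.05, which MOL1 and CLE44 have and none of the WRKY, ERF or defence genes has. The widest interval plotted, -3.51 to 2.58, belongs to LCR67.

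Regulators of cambium and secondary wall were the related list with calls. Of 28 listed genes 3 were measured, 2 rose and none fell, with MOL1 at 0.67 (limma, adjusted p = 0.0209) and CLE44 at 1.92 (adjusted p = 0.00236), while CLE41 differed by 0.46 (adjusted p = 0.132). The differences of WRKY20, WRKY47 and ORA47 were close in size to that of CLE41, which was not called, and below those of MOL1 and CLE44. Of the marker genes of xylem, 3 of 10 were measured and all 3 rose, with a mean level over the 3 of 8.00 to 8.29 in mock and 9.22 to 9.67 in NPA. Markers of the green cortex had 4 of 21 measured, all higher in NPA and 0 called, at a mean level of 10.8 to 11.0 in mock and 10.9 to 11.3 in NPA. Phloem markers had 2 of 7 measured, OPS higher and called and SWEET11 at -0.95 and not called, and the starch sheath gene SCL23 differed by -0.51 without a call. The epidermis, stomata and flower lists had 1, 3 and 1 measured members and 0 calls. The part of these tissues in the WRKY20 and WRKY47 values was not tested.

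Pearson's r between arrays over all probe sets was 0.982 at its lowest, for a mock and an NPA array, and 0.993 at its highest. The array median was higher in NPA, at 6.36 ± 0.04 against 6.25 ± 0.06 (SD, n = 3 each), and centring the arrays moved every difference down by 0.11. Before centring, the median difference over all probe sets was 0.02, smaller than the gap between the array medians. After centring, WRKY20 and WRKY47 differed by 0.34 and 0.36, ORA47 by 0.35, WRKY53 by 0.15, WRKY6 by 0.03 and WRKY22 by -0.48.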

How the data were processed

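The deposited values are log2 expression values of 22810 probe sets on each of 6 arrays, made by the authors with RMA and tested with limma, as far as the submitters' processing notes name tools (no version is listed there). RMA as a rule subtracts background, brings the arrays to 1 distribution and combines the probes of a set, which reduces overall differences between arrays. In the deposited values such differences remained, with array medians from 6.18 in mock 1 to 6.39 in NPA 3. Probe set definitions and filters: not given in the sources used here. Sample titles gave the group and replicate number. The labels do not tie samples to separate plants, so p-values rest on the spread between these samples, possibly technical.

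The values were used as deposited, without a filter on low values, and the 64 control probe sets were left out, which left 22746. NPA minus mock was fitted with lmFit and eBayes of limma 3.58.1 (R 4.3.3), p-values were adjusted by Benjamini-Hochberg across the 22746, and genes were called at an adjusted p under 0.05. Standard errors and intervals are limma's. Python 3.11.15 with pandas 2.3.3 gave the tables, and matplotlib 3.10.9 the plots. The fit was tested on simulated data.

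Of the 22746 probe sets tested, 13513 had 1 gene in the platform table, 503 had several genes and 8730 had no listed gene. Of the 13513, 13436 were matched by gene number to the TAIR10.1 table. No coordinates or sequences are given. Named in full were all 7 members. Of each related list, genes called and the 2 with the lowest p were named, and further list genes were chosen after their values were seen. The members and lists were chosen with earlier results of these data known. AILP1 fitted a letter pattern of the AP2/ERF list but is no such gene and was left out, and ACR4 and FDH were read as the epidermis genes of those names. Alternatives tried were a replicate block, other scalings, variance models, filters, thresholds and each array left out. Leaving out mock 1 and NPA 3 together was chosen after seeing the data.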

Additional observations from a re-analysis of the deposited data

How the results depend on the processing

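Neither family gained a called gene at an adjusted p under 0.05 in any alternative run, and at an adjusted p under 0.1 the number of WRKY genes called was 1, WRKY20. WRKY20, WRKY47 and WRKY22 kept their direction in all alternatives, at 0.34 to 0.50, 0.30 to 0.57 and -0.50 to -0.20. With single arrays left out WRKY53 ranged from -0.13 to 0.74, WRKY6 from -0.17 to 0.37, WRKY42 from -0.069 to 0.10 and ORA47 from -0.066 to 0.76. Without both mock 1 and NPA 3, WRKY53 was at -0.41 and WRKY6 at -0.052, and with arrays centred on their medians WRKY42 was at -0.071. The cause of these turns was not tested. The median of the WRKY genes was -0.01 to 0.42 over single arrays left out. Among the brighter probe sets only, 4 WRKY genes and no ERF gene were left.

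Departures from the group mean had correlations of -0.256, 0.050 and 0.043 between same-numbered arrays. Other pairs ran from -0.344 (mock 2 with NPA 3) to 0.363 (mock 2 with NPA 1). Such values cannot show whether equal numbers mark samples handled together, and the labels do not say. With the replicate block 449 probe sets were called in place of 683, 0 members among them, with WRKY20 at adjusted p = 0.174. Single arrays left out gave 304 to 446 calls, fewer samples being part of that, and leaving out both mock 1 and NPA 3 gave 397. Of the 683 calls 628 were higher and 55 lower, and after median centring 391 were higher and 97 lower. With 3 arrays a group, the 95% interval of WRKY53 ran from -0.76 to 1.27, so a fall or a rise of up to those sizes lies within its error.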
